A study of Mus musculus with 19 samples.

Results

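The genes described here are the chemokines and the chemokine receptors of the mouse, taken from the deposited table by symbol: protein-coding genes named Ccl, Cxcl, Xcl or Cx3cl (ligands) or Ccr, Cxcr, Xcr or Cx3cr (receptors) followed by a number. The rule found 58 of the 26796 genes in the table, 40 ligand genes (37 symbols) and 18 receptor genes. RNA was sequenced from 19 whole mammary tumours of the Met1 line, mouse mammary cancer cells that form tumours when transplanted. The mice had been given extracellular vesicles, the small membrane particles that cells release, collected from neutrophils. In 9 tumours the donor neutrophils had received the solvent DMSO, and in 10 they had received 27-hydroxycholesterol (27HC), a cholesterol metabolite. All tumours were therefore exposed to neutrophil vesicles, and no group without vesicles is analysed here. The sources used here give neither the strain and age of the mice nor the dose, route and timing of the vesicles. They also leave unsaid whether each tumour came from its own mouse, so p-values measure the spread between these samples, which may be partly technical.

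Chemokines are small secreted proteins that guide moving cells, mostly leukocytes, along concentration gradients. They act through receptors that couple to inhibitory G proteins, and a ligand can often use several receptors and a receptor several ligands. In mammary tumours they are known for drawing in monocytes, T cells, natural killer (NK) cells, dendritic cells and neutrophils, and they are made by tumour cells, stromal cells and the leukocytes themselves. Many are encoded in tight genomic clusters. In RNA from a whole tumour, fewer cells of a type and less RNA per cell cannot be told apart.

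Library totals ranged from 28139419 to 41179056 expected counts. In 5 libraries the count-weighted GC content of the transcripts lay between 49.1% and 49.3%, and in the other 14 between 50.6% and 52.3%. The low-GC libraries comprised 2 DMSO tumours (replicates 1_5 and 2_3) and 3 27HC tumours (replicates 1_3, 1_5 and 2_3). They stood apart for many members, so results are given with and without them. Markers of the labelled tissue were present but uneven. Krt18, a keratin of epithelial cells, had medians of 76.0 CPM (read counts scaled to library size) in DMSO and 89.5 CPM in 27HC tumours. The adhesion gene Epcam had only 2.32 and 1.92 CPM. The other epithelial markers were also far below Krt18: Krt8 had 3.04 and 3.53 CPM, Krt7 2.12 and 1.35 CPM, and Cdh1 8.88 and 6.55 CPM. Markers of neighbouring tissues were also present: 5 skeletal muscle markers summed to 2.34 through 18.4 to 1078 CPM in DMSO and 1.99 through 144.6 to 2671 CPM in 27HC tumours. The summed salivary gland markers reached 6120 CPM in DMSO replicate 1_5, and the highest 27HC tumour held 3.70 CPM.

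Of the 58 member genes, 47 passed the filter on low counts (30 ligands and 17 receptors). The other 11 were Ccl20, Ccl21b (3 entries), Ccl21c, a scaffold copy of Ccl21a, a scaffold copy of Ccl27, Cxcl3, Cxcl15, Cxcl17 and Cxcr1. None of these 11 exceeded 189.5 expected counts in any tumour, the value that Cxcl17 reached. Cxcr1, a neutrophil receptor, peaked at 10.9 expected counts. The Ccl21 genes are near-identical copies, so how the reads were split among them is uncertain.

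Cxcl9 and Cxcl10 are neighbours on chromosome 5, lie 27.5 kb apart at their outer ends, and encode ligands of Cxcr3 that interferon induces. Their levels moved together over tumours, as described below, so the 250 bases before each RefSeq transcript start (GRCm38.p6, minus strand) are shown. Capitals mark matches, on either strand, to the interferon element (GAAA, 2 bases of any kind, GAAA), the gamma-activated site (TTC, 3 bases of any kind, GAA) or the NF-kB consensus.
Cxcl9, chr5:92328080-92328329: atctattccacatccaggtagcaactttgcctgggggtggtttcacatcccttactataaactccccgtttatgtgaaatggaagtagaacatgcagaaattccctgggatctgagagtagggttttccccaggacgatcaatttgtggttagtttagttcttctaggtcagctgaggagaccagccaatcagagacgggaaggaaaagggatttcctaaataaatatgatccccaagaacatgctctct
Cxcl10, chr5:92348890-92349139: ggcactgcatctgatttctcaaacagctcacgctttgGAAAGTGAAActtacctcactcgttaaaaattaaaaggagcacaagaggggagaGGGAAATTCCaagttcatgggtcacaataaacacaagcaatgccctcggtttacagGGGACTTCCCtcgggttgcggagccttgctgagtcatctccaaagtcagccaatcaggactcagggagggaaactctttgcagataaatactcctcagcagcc
The Cxcl10 window held the interferon element at -213 to -204 and 2 NF-kB matches, at -159 to -150 and at -103 to -94 from the start. The Cxcl9 window held none of the 3 patterns, which says only that these letters are not in it. RefSeq promoters were matched for 40 of the 55 member symbols. A member symbol was counted if any of its promoter entries held a match. The shares over all promoters count single entries, so the member counts and these shares are not on the same footing. The interferon element was found for 3 of 26 ligand symbols (Ccl19, Cxcl10 and Cxcl14) and for 0 of 14 receptor symbols, against 2.98% of all 32851 promoter entries. An NF-kB match was found for 6 of 26 ligand symbols (Ccl9, Ccl20, Cxcl1, Cxcl2, Cxcl3 and Cxcl10) and for 2 of 14 receptor symbols (Ccr3 and Ccr6), against 3.90% of all promoter entries. The gamma-activated site was found for Ccl17, Cxcl14 and Ccr6, against 7.02% of all promoter entries. A match is a description of the sequence and not a bound site.

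The ligand with the highest level per length was Cx3cl1 (fractalkine), a membrane-anchored chemokine that also serves as an adhesion molecule. Averaged over the 19 tumours it reached 147.6 CPM per kb of exons, against 85.0 for Cxcl9, 67.3 for the monocyte attractant Ccl8, 34.3 for the membrane-bound Cxcl16 and 30.7 for Cxcl14. The receptors lay lower on the same scale, led by the fractalkine receptor Cx3cr1 at 13.5, the Cxcl12 receptor Cxcr4 at 10.2 and the inflammatory receptor Ccr1 at 9.16 CPM per kb.

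Members had a wide spread between tumours. The ratio of the highest to the lowest tumour had a median of 5.01 over the 41 members with at least 3 counts in each library, against 3.08 over 14719 genes. It ran from 1.86 for Cxcl16 to 65.4 for the B cell attractant Cxcl13. One tumour, 27HC replicate 1_3, held the highest value of 16 of the 47 members, and it was also the tumour in which 15.3% of all tested genes peaked.

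No member passed the test between 27HC and DMSO. With edgeR's quasi-likelihood test and Benjamini-Hochberg adjustment over 15629 genes, 0 of 47 members were called, where 0% of all genes were called. The smallest adjusted p among members was 1.00. At an unadjusted p under 0.05 there was 1 member, Ccl3, against 2.27% of all genes. DESeq2 called 0.0128% of genes (2 genes, neither a member), and limma-voom called 0. The fitted fold change was below 0 for 34 of 47 members (72.3%), against 46.1% of all tested genes, with a member median of -0.11 and a median of 0.01 over all genes. That count covered 20 of 30 ligands (median -0.10) and 14 of 17 receptors (median -0.12). Members share tumours and move together, so they are not 47 independent values. The 95% interval of the fold change stayed within 2-fold either way for 30 of 47 members (63.8%), against 86.3% of all genes.

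**Figure D1:**
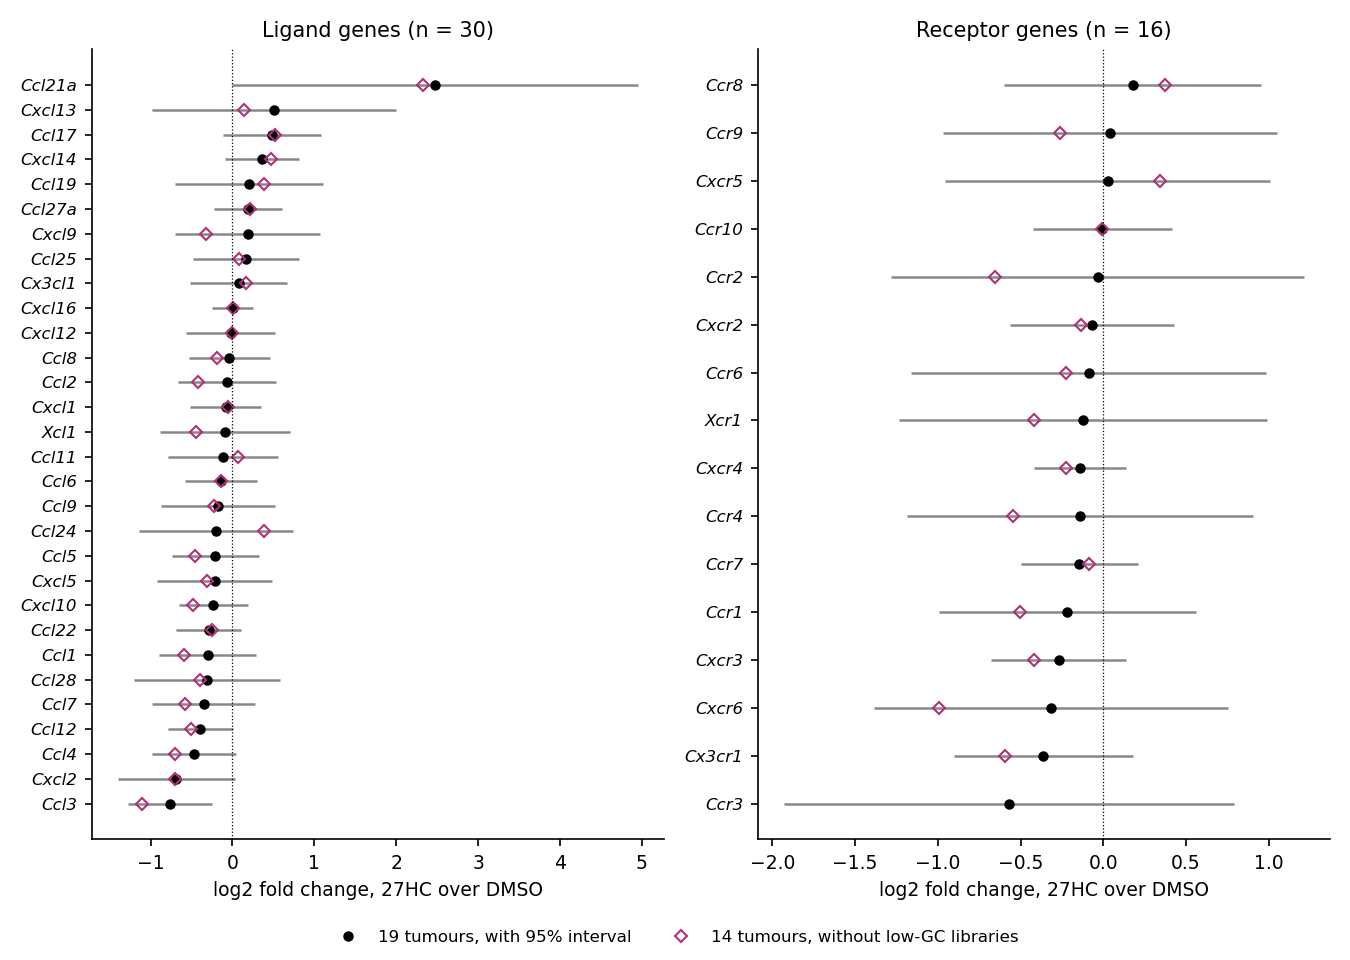
Fitted log2 fold change of 27HC over DMSO for 30 ligand genes and 16 receptor genes, ordered by value. Black points with bars are the estimate and 95% interval over 19 tumours, and open diamonds are estimates over the 14 tumours without the low-GC libraries (Ccr3 has none there). The interval of Ccl3 lies wholly below 0.

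Among the ligands, Ccl3 (macrophage inflammatory protein 1 alpha), an attractant of macrophages and T cells that binds Ccr1, had the smallest p. Its level ran from 3.76 through a median of 5.67 to 11.5 CPM in DMSO tumours and from 2.20 through 3.75 to 6.43 CPM in 27HC tumours. The groups overlapped, but 9 of 10 27HC tumours lay below the DMSO median and 5 lay below the lowest DMSO tumour. The fold change was -0.76 (log2, SE 0.24), with an unadjusted p of 0.0051 and an adjusted p of 1.00 (edgeR). It was below 0 in 31 of 31 alternative fits, between -1.10 and -0.62. These fits reuse the same tumours, and 20 of 47 members kept their sign in all of theirs.

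Ccl4, the partner of Ccl3 in the same cluster on chromosome 11, ran from 2.92 through 4.38 to 9.58 CPM in DMSO and from 2.23 through 3.34 to 5.81 CPM in 27HC tumours. Its fold change was -0.47 (SE 0.24, unadjusted p = 0.0685, edgeR). Both genes were highest in DMSO replicate 2_4 and, within 27HC, in replicate 2_3. Ccl3 and Ccl4 were the most closely correlated pair of members among the 14 tumours without the low-GC libraries, at r = 0.904, and had r = 0.895 over all 19 (descriptions).

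Ccl12, a mouse ligand of the monocyte receptor Ccr2, ran from 12.8 through 15.6 to 26.1 CPM in DMSO and from 8.44 through 11.4 to 21.2 CPM in 27HC tumours. In 7 of 10 27HC tumours it was below every DMSO tumour, and the 3 that were not were the low-GC libraries. The fold change was -0.40 (SE 0.19, unadjusted p = 0.0502, edgeR). Without the low-GC libraries the groups did not overlap: DMSO ran from 12.8 to 17.8 CPM and 27HC from 8.44 to 12.4 CPM, 7 tumours each. Ccl12 was the only member of which this was true, and 0.0192% of tested genes (3 of 15629) had every 27HC tumour below every DMSO tumour there. The fold change was then -0.51 (SE 0.13, unadjusted p = 0.00129), and its adjusted p was 0.787.

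Cxcl2, a neutrophil attractant acting through Cxcr2, ran from 1.06 through 1.33 to 5.93 CPM in DMSO and from 0.60 through 1.36 to 2.31 CPM in 27HC tumours. Its medians were close, and DMSO replicate 1_3 alone held the value of 5.93 CPM. The fold change was -0.69 (SE 0.34, unadjusted p = 0.0580, edgeR), and -0.34 without that tumour.

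In the other direction, the value furthest from 0 was that of Ccl21a, which draws Ccr7-bearing T cells and dendritic cells into lymphoid tissue. It ran from 0 through 0.28 to 12.2 CPM in DMSO and from 0 through 5.45 to 39.9 CPM in 27HC tumours. Values above 8 CPM were found in 1 DMSO tumour (replicate 1_5) and in 5 27HC tumours (39.9 in 1_3, 33.5 in 2_3, 11.2 in 1_5, 10.4 in 1_2 and 8.92 in 1_4), 4 of these 6 being low-GC libraries. Both groups also held tumours at 0. The fold change was 2.47 (SE 1.19, unadjusted p = 0.0507, edgeR). It was 4.21 without DMSO replicate 1_5, 1.93 without 27HC replicate 1_3 and 1.48 with the skeletal muscle score as a covariate. This score, the mean of the z-scored levels of the muscle markers, was 1.51 in 27HC replicate 1_3, 0.83 in 2_3, 1.60 in 1_5, 1.04 in 1_2 and -1.09 in 1_4. The score was 0.18 in DMSO replicate 1_5. In DMSO replicates 1_2 and 1_4 the score was 1.13 and 0.97, with Ccl21a at only 0.13 and 0.34 CPM. Lymphatic endothelial markers were also above 0 between the groups, 2 of 2 tested and 0 called, Flt4 at 0.54 (unadjusted p = 0.0087, adjusted p = 1.00, edgeR) and Lyve1 at 0.40. The part of either list in the Ccl21a value was not tested beyond the covariate. A fitted value for a gene with zeros depends on the prior count.

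Ccl17, a Ccr4 ligand made by dendritic cells, ran from 0.41 through 0.68 to 1.34 CPM in DMSO and from 0.60 through 0.91 to 2.07 CPM in 27HC tumours, a fold change of 0.48 (SE 0.29, unadjusted p = 0.110). Cxcl14, a chemokine of epithelia and stroma, ran from 29.3 through 46.4 to 71.3 CPM and from 35.5 through 53.5 to 120.8 CPM, a fold change of 0.36 (SE 0.22, unadjusted p = 0.114). In both, 3 27HC tumours lay above every DMSO tumour and 2 lay below the DMSO median. Ccl27a, a skin chemokine that binds Ccr10, had a fold change of 0.19 (SE 0.20).

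Apart from Ccl12 (-0.40) and Cxcl14 (0.36), described above, the 8 ligands highest per length showed little difference between the groups relative to their spread. Cx3cl1 ran from 245.8 through 591 to 857 CPM in DMSO and from 197 through 662 to 859 CPM in 27HC tumours, with a fold change of 0.08 (SE 0.28). Cxcl9 ran from 101 through 202 to 552 CPM and from 80.9 through 186 to 813 CPM, a fold change of 0.18 (SE 0.43) that was -0.32 (SE 0.24) without the low-GC libraries. Neither gene separated the groups. Cxcl16, the ligand of Cxcr6, had the narrowest interval around 0 of these, at 0.00 (SE 0.12), with 77.3 through 100.7 to 135.1 CPM in DMSO and 81.6 through 102.7 to 143.9 CPM in 27HC tumours. Ccl8 had -0.04 (SE 0.24), the myeloid ligand Ccl6 -0.14 (SE 0.21) and the T and NK cell product Ccl5 -0.21 (SE 0.25). Xcl1 (lymphotactin), which lay at a lower level, had -0.09 (SE 0.38).

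**Figure D2:**
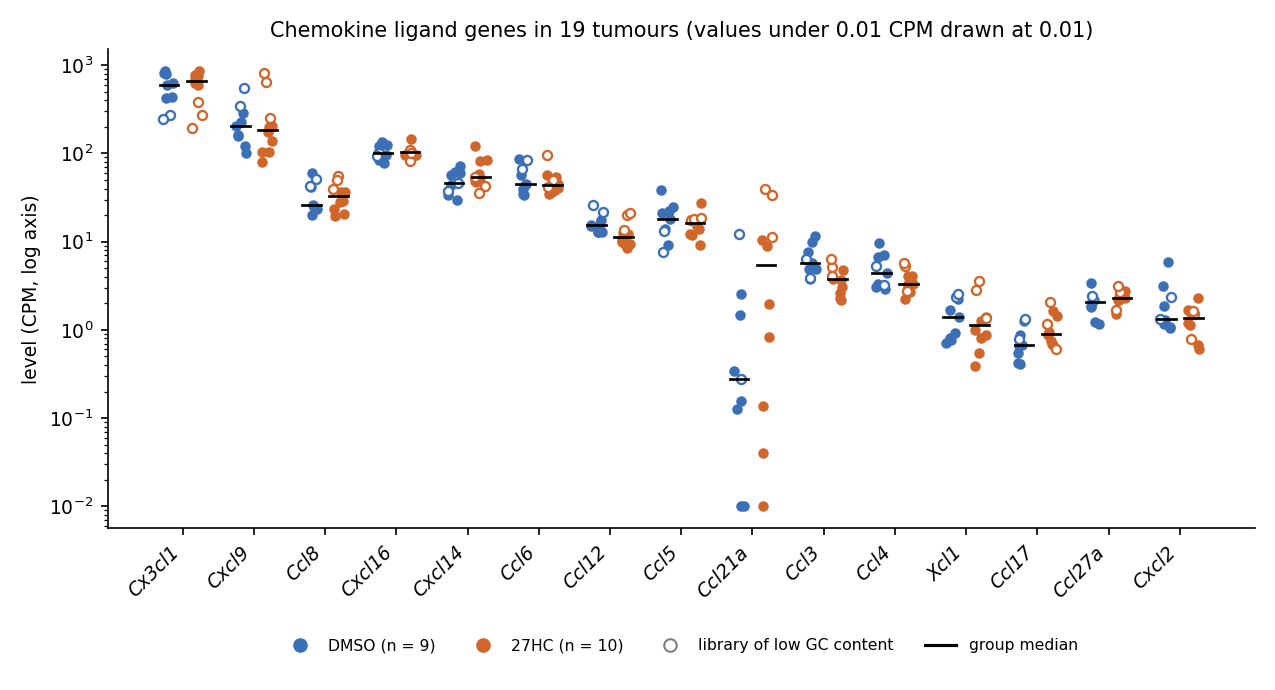
Level in CPM (log axis) of 15 ligand genes in each of 9 DMSO tumours (blue) and 10 27HC tumours (orange), ordered by level per length, with group medians as bars and low-GC libraries as open points. The groups overlap for every gene, 5 27HC tumours lie below the lowest DMSO tumour for Ccl3, and Ccl21a is spread from 0 to 39.9 CPM.

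Among the receptors, Cx3cr1, a marker of resident macrophages and patrolling monocytes, had the smallest p. It ran from 35.3 through 60.5 to 104.9 CPM in DMSO and from 29.7 through 41.6 to 112.8 CPM in 27HC tumours, and 8 of 10 27HC tumours lay below the DMSO median. The fold change was -0.36 (SE 0.26, unadjusted p = 0.177, edgeR). The highest tumours of both groups were low-GC libraries, and without these the fold change was -0.59 (SE 0.19, unadjusted p = 0.00594, adjusted p = 0.787).

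Ccr2, the receptor by which inflammatory monocytes leave the marrow, had one of the widest ranges. It ran from 9.74 through 20.7 to 90.9 CPM in DMSO and from 7.57 through 13.5 to 134.4 CPM in 27HC tumours, with a fold change of -0.03 (SE 0.60). The 4 tumours at 80 CPM or more were 2 of each group, all of them low-GC libraries (DMSO 1_5 and 2_3, 27HC 1_3 and 2_3). Ccr1, its neighbour on chromosome 9, had -0.22 (SE 0.37), and 6 of 10 27HC tumours lay below every DMSO tumour and 2 above every one.

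The remaining named receptors had intervals that included 0. Cxcr4 had a fold change of -0.14 (SE 0.13), the lymph node homing receptor Ccr7 -0.14 (SE 0.17), the neutrophil receptor Cxcr2 -0.07 (SE 0.24), the T cell receptor for Cxcl9 and Cxcl10, Cxcr3, -0.27 (SE 0.20), and Xcr1, found on cross-presenting dendritic cells, -0.12 (SE 0.53). Their groups overlapped throughout.

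**Figure D3:**
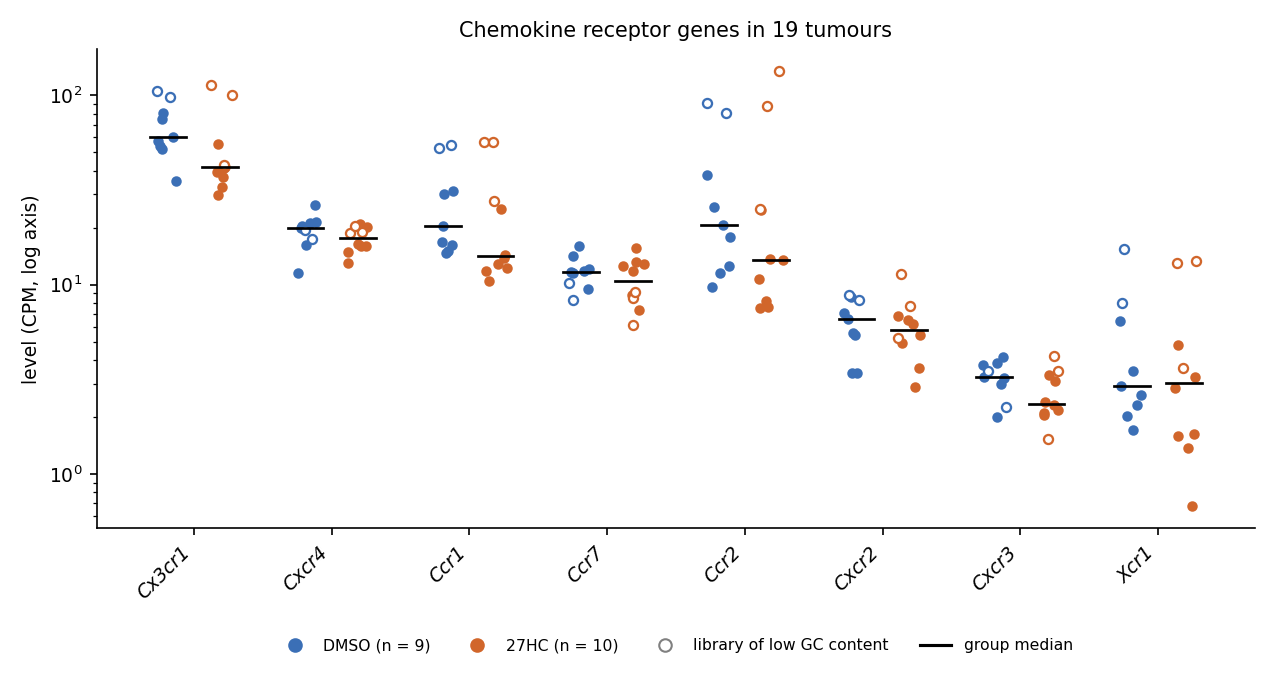
Level in CPM (log axis) of 8 receptor genes in each of 9 DMSO tumours (blue) and 10 27HC tumours (orange), ordered by level per length, with group medians as bars and low-GC libraries as open points. The low-GC libraries hold the highest values of Cx3cr1, Ccr1, Ccr2 and Xcr1 in both groups, up to 134.4 CPM for Ccr2.

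The first number in each title is 1 or 2 and has no stated meaning. With title number 1 alone (5 DMSO, 5 27HC) the member median was -0.01 and 24 of 46 tested members were below 0, where 44.2% of all genes were. With title number 2 alone (4 DMSO, 5 27HC) it was -0.23 with 35 of 48, where 52.6% of all genes were. The interaction of treatment with this number, which tests the difference itself, called 0 members, where 0% of all genes were called. The smallest interaction p was that of Ccl24, a Ccr3 ligand that draws eosinophils, with a value of -2.23 (SE 0.81, unadjusted p = 0.0124, adjusted p = 0.911, edgeR). Without 27HC replicate 1_3 the member median was -0.33 with 40 of 47 below 0, where 56.8% of all genes were. Without DMSO replicate 2_3 it was -0.01 with 24 of 47 below 0, where 47.7% of all genes were. Both are low-GC libraries. With the skeletal muscle score as a covariate the median was -0.26 with 37 of 47 below 0, where 53% of all genes were.

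Without all 5 low-GC libraries, 33 of 46 tested members lay below 0, where 50.4% of all genes did, with a median of -0.24, and 0 were called by edgeR after adjustment. At an unadjusted p under 0.05 (edgeR), 3.06% of all genes were lower and 450 of 15260 genes were higher. Among members 9 of 46 were lower (19.6%) and 0 higher. In addition to Ccl3, Ccl12 and Cx3cr1 these were Ccl4 (-0.71, SE 0.27), Ccl2 (-0.42, SE 0.17), Ccl7 (-0.58, SE 0.19), Cxcl10 (-0.48, SE 0.19), Ccr1 (-0.51, SE 0.22) and Cxcr6 (-0.99, SE 0.47). Ccl2 and Ccl7, like Ccl12, are monocyte attractants that bind Ccr2. Markers of leukocytes, none of them called, differed between lists in the same 14 tumours. Below 0 lay 7 of 7 macrophage and monocyte markers (median -0.26), 6 of 6 T cell markers (-0.28), 5 of 5 NK cell markers (-0.67), 3 of 4 B and plasma cell markers (-0.13), 3 of 5 dendritic cell markers (-0.14) and 2 of 3 eosinophil and mast cell markers (-0.07). Neutrophil markers had 1 of 4 below 0 and a median of 0.49. Over the 19 tumours the neutrophil median was 0.73. S100a8 was at 0.94 (unadjusted p = 0.0221) and Retnlg at 0.85 (unadjusted p = 0.0163), both at an adjusted p of 1.00 by edgeR. S100a9 was at 0.61 (unadjusted p = 0.173, edgeR). Csf3r, the neutrophil marker with the highest medians, went the other way at -0.14 (unadjusted p = 0.453, edgeR). Over the 19 tumours the summed level of the macrophage and monocyte markers ran from 1158 through 1500 to 2081 CPM in DMSO and from 1030 through 1401 to 1863 CPM in 27HC tumours, with 7 of 7 below 0 (median -0.11). The summed NK cell markers ran from 17.3 through 26.7 to 60.1 CPM and from 9.31 through 23.1 to 52.6 CPM. In the same 19 tumours 4 of 5 B and plasma cell markers (median 0.19) and 3 of 5 dendritic cell markers (median 0.02) lay above 0. Below 0 lay 5 of 6 T cell markers (-0.19), 5 of 5 NK cell markers (-0.31) and 3 of 3 eosinophil and mast cell markers (-0.19). The part of these marker lists in the member values was not tested. With the low-GC libraries kept and entered as a covariate, 5 of 47 members were lower at an unadjusted p under 0.05 (edgeR). Ccl21a alone (1 of 47) was higher. Over all genes 3.17% were lower and 426 of 15629 were higher. The leaving out was chosen after seeing the data.

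Members stood high in the low-GC libraries. Of the 47, 37 had a higher mean log2 level there, where 53.7% of all genes did, and the median difference was 0.75 (log2), against 0.09 over all genes. Receptors had a median of 1.18 and ligands of 0.49. Ccr2, which ran from 25.2 to 134.4 CPM in the 5 low-GC libraries and from 7.57 to 38.1 CPM in the 14 others, differed by 2.39. Cxcl13 differed by 2.71, the eosinophil receptor Ccr3 by 2.21, Xcr1 by 1.99 and Cxcl9 by 1.65. The opposite held for Cx3cl1, which ran from 197 to 384 CPM in the low-GC libraries and from 425 to 859 CPM in the others without overlap, a difference of -1.33. All 5 low-GC libraries lay below all 14 others for 11.8% of all genes.

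The transcripts of the receptors that stood highest are poor in G and C. Across members the Pearson correlation of transcript GC content with the difference was -0.50 over 47 genes, and across 15406 genes it was -0.69. The 5 libraries were set apart by the GC content of these same counts. That choice by itself favours a negative correlation, so its sign is no test of anything. Genes are not independent replicates, and the correlation is a description. Ccl21a departed from the others, with a GC-rich transcript and a difference of 4.24. Leukocyte marker scores, computed as for muscle, were not high in all 5 libraries. T cell scores were 0.83 in DMSO replicates 1_5 and 2_3, 1.04 in 27HC replicate 1_3 and 1.33 in 2_3. In 27HC replicate 1_5 the scores were -0.57 for T cells, -0.96 for macrophages and monocytes and 0.16 for NK cells. The parts of leukocyte content and of the GC content of the library in the member levels were not tested.

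**Figure D4:**
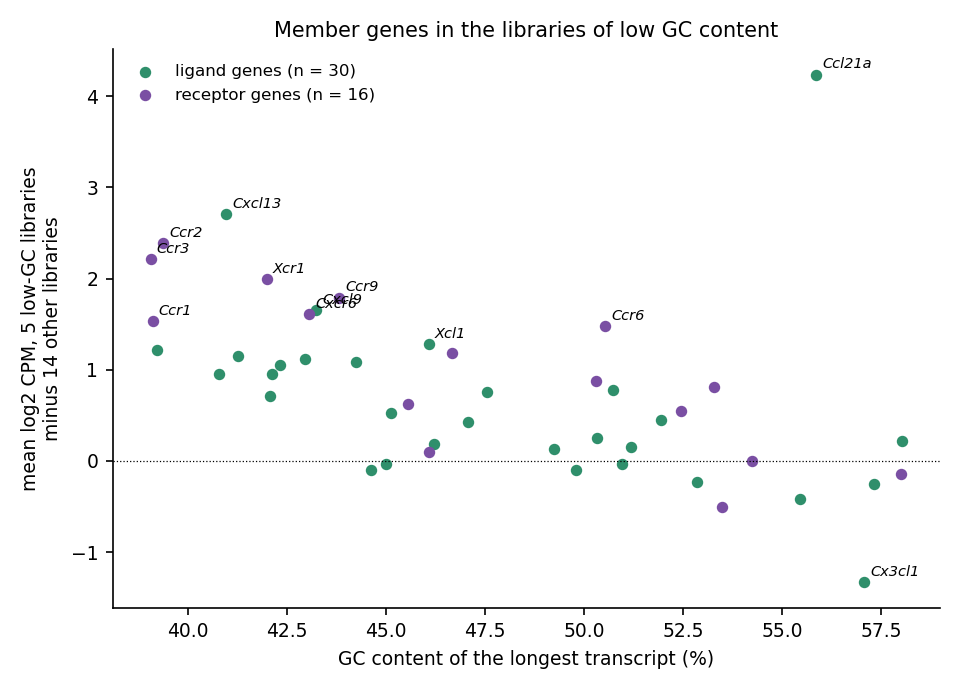
Mean log2 CPM in the 5 low-GC libraries minus that in the 14 others (y axis), against the GC content in percent of each gene's longest transcript (x axis), for 30 ligand and 16 receptor genes. Ccl21a lies at 4.24, Ccr2 at 2.39 and Cx3cl1 at -1.33.

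Ligand and receptor levels were compared over tumours for 30 pairs with known binding, all with 2-sided permutation tests (100000 permutations) and adjustment over the 30. Because the low-GC libraries stand apart, values over the other 14 tumours are given first, and the 5 low-GC libraries are too few for a value of their own. Over the 14 tumours 4 pairs passed, all positive: Ccl3 with Ccr1 (r = 0.720), Cxcl10 with Cxcr3 (0.713), Ccl9 with Ccr1 (0.703) and Ccl22 with Ccr4 (0.701), with unadjusted permutation p from 0.00406 to 0.00607 and an adjusted p of 0.0455 each. Their Spearman coefficients over the same tumours were 0.727, 0.565, 0.688 and 0.648, with adjusted permutation p from 0.104 to 0.166. Thus these pairs passed by Pearson's r and not by Spearman's rho.

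Over all 19 tumours 16 of 30 pairs passed, 14 positive and 2 negative, and 3 of the 4 above were among them. Members also moved together without regard to binding. The median r of the 30 pairs was 0.421 over 19 and 0.331 over 14 tumours, against 0.309 and 0.192 over all 1081 member pairs. How many unmatched pairs would pass was not tested, so the counts are not specific to binding. The highest r was that of the monocyte pairs Ccl2 with Ccr2 (r = 0.855, rho = 0.761) and Ccl7 with Ccr2 (r = 0.851, rho = 0.682), each with an adjusted permutation p of 0.0003. Over the 14 tumours they were 0.380 and 0.472, and neither passed (adjusted permutation p = 0.363 and 0.279). Without the 2 tumours furthest from the median ligand level they were 0.751 and 0.769.

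Xcl1, made by T and NK cells, and its single receptor Xcr1 had r = 0.842 and rho = 0.798 over 19 tumours, r = 0.833 within DMSO and 0.843 within 27HC, and r = 0.811 without the 2 furthest tumours. Over the 14 tumours r was 0.627, with an adjusted permutation p of 0.0905. Ccl9 with Ccr1 had r = 0.789 over 19 and 0.797 without the 2 furthest tumours. Cxcl5 with Cxcr2, a neutrophil pair, had 0.762 over 19 and 0.618 over 14 tumours (adjusted permutation p = 0.0905).

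Cx3cl1 and Cx3cr1 ran opposite to each other, at r = -0.800 and rho = -0.667 over 19 tumours, -0.764 within DMSO and -0.897 within 27HC. Over the 14 tumours r was -0.513 (adjusted permutation p = 0.227). The other lowest values were Ccl21a with Ccr7 at -0.577, which was -0.233 over 14 tumours, and Ccl28 with Ccr10 at -0.292, which did not pass. Pairs near 0 over the 19 tumours included Cxcl16 with Cxcr6 (0.07), Cxcl12 with Cxcr4 (0.10) and Cxcl2 with Cxcr2 (-0.04).

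Neighbouring genes were set side by side as a description, with no test. The 6 receptors Ccr9, Cxcr6, Xcr1, Ccr1, Ccr3 and Ccr2 lie within 435 kb on chromosome 9 (123678439 to 124113557, GRCm38), and their 15 pairs had a median r of 0.852 over 19 tumours and 0.601 over 14. The same medians were 0.309 and 0.192 over all 1081 pairs of members. Ccr1 and Ccr2 had 0.963 and 0.867. Cxcl9 and Cxcl10, whose promoters are printed above, had 0.717 and 0.659. The 6 ligands around Ccl2 on chromosome 11 had medians of 0.539 and 0.350, and the 5 around Ccl5 had 0.281 and 0.311. The neutrophil ligands Cxcl5, Cxcl1 and Cxcl2 on chromosome 5 had -0.12 and -0.15, and Ccl22, Cx3cl1 and Ccl17 on chromosome 8 had -0.13 and -0.11. Proximity thus went with a high r in some clusters and not in others. Over the 14 tumours the member pair with the lowest r was Ccr1 with Cxcl14, at -0.68.

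Each member was also compared with scores for 15 cell types, each the mean of z-scored log2 CPM of its markers, giving 705 relations adjusted together. Over the 14 tumours 7 relations passed, all positive and all with T or NK cells: Ccl5 with the T cell score (r = 0.895, adjusted permutation p = 0.0094), Cxcr6 with the NK cell score (0.886, 0.0094), Cxcl9 with the NK cell score (0.884, 0.0094), Ccl8 with T cells (0.839, 0.0300), Ccl1 with T cells (0.837, 0.0317), Cxcr6 with T cells (0.804, 0.0317) and Ccl5 with NK cells (0.808, 0.0463). As background, 0.461% of all genes reached the smallest of these r values with the T cell score and 0.512% with the NK cell score. Spearman coefficients over these tumours were 0.846 for Ccl5 and 0.851 for Ccl1 with T cells and 0.908 for Cxcl9 with NK cells (adjusted permutation p = 0.0476, 0.0476 and 0.0282), and the other 4 did not pass by rho. Ccl5 is a product of activated T and NK cells, Cxcr6 a receptor of tissue-resident T and NK cells, and Cxcl9 an attractant of both. Ccl1 was low throughout, from 0.33 to 1.38 CPM in DMSO and from 0.39 to 1.21 CPM in 27HC tumours.

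Over 19 tumours 172 relations passed, 144 positive and 28 negative, 5 of the 7 above among them. The T cell score had 25 of 47 members called positive (17.6% of all genes reached the smallest called r), NK cells 28 (29.2%), B and plasma cells 24 (28.9%), dendritic cells 22 (23.9%), eosinophils and mast cells 22 (33.3%) and macrophages and monocytes 9 (7.93%). Outside the T and NK cell scores none of these relations passed over the 14 tumours. Cxcl9 and Cxcr6 had r = 0.909 and 0.933 with NK cells over 19 tumours, and 0.919 and 0.903 without the 2 furthest tumours. Ccl5, in contrast, had 0.484 with T cells over all 19 (adjusted permutation p = 0.116), its low-GC libraries lying at 7.60 to 18.5 CPM among others at 9.21 to 38.1 CPM.

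Several members followed one cell score in both sets of tumours without passing in the 14. Cxcr3 and the macrophage and monocyte score had r = 0.817 over 19 (adjusted permutation p = 0.0010) and 0.817 over 14 tumours (adjusted permutation p = 0.0564). Ccr3 and the eosinophil and mast cell score had 0.915 and 0.748, the eosinophil attractant Ccl11 and fibroblasts 0.634 and 0.765, Cxcr4 and endothelial cells 0.639 and 0.640, and Ccl22 and dendritic cells 0.586 and 0.768. Cxcr2 and the neutrophil score had 0.405 and 0.603, and neither value passed. Over the 14 tumours the median r of all 47 members was 0.41 with macrophages and monocytes, where that of all genes was -0.10. With dendritic cells these medians were 0.33 and -0.03, with eosinophils and mast cells 0.22 and 0.01, and with endothelial cells 0.14 and -0.07. They were -0.16 and 0.05 with fibroblasts and 0.12 and 0.07 with neutrophils. Ccl27a was the only member called with the neutrophil score over 19 tumours, where 1.46% of all genes reached the smallest called r. The pericyte score had 17 members called negative over 19 tumours (22.3% of all genes were as far below 0), furthest for Cx3cr1 at -0.843, which was -0.733 over 14. Ccl21a followed the lymphatic endothelial score at 0.600 over 19 and 0.394 over 14 tumours.

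**Figure D5:**
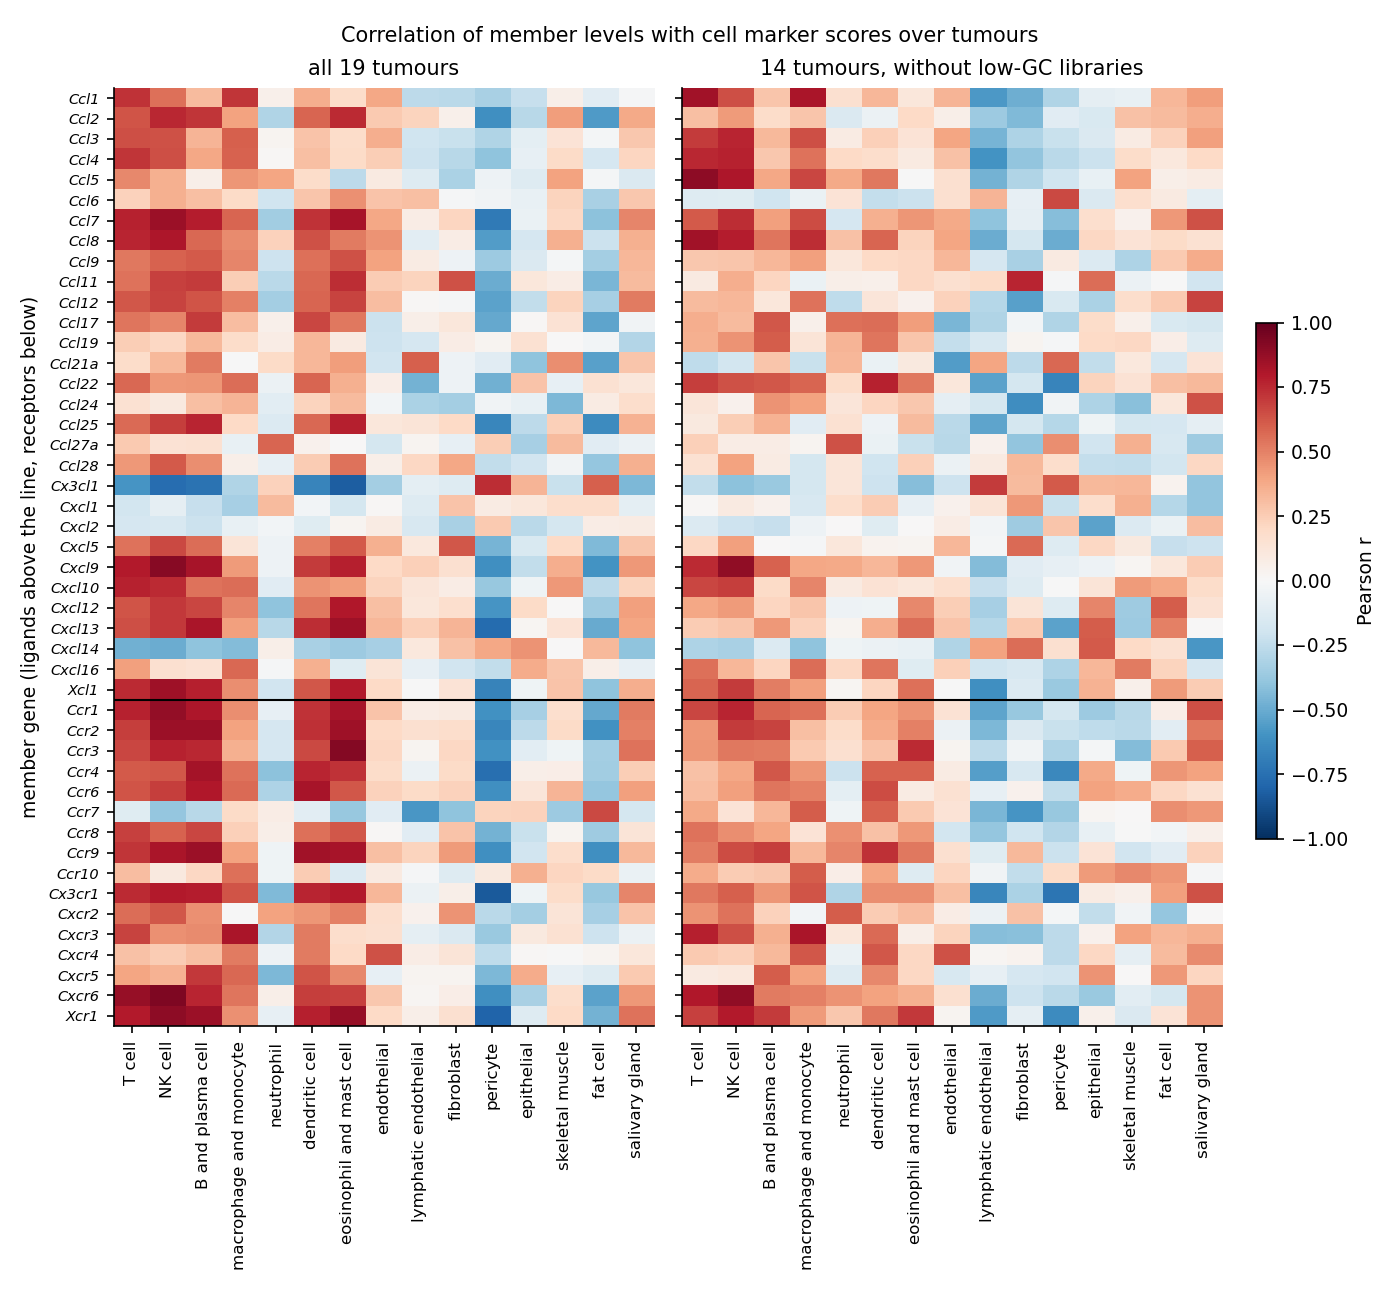
Pearson correlation (colour, -1 to 1) of 46 member genes (rows) with 15 cell marker scores (columns), over 19 tumours on the left and over the 14 tumours without low-GC libraries on the right. Relations with B cells, dendritic cells and eosinophils are paler on the right, and Ccl5 with T cells is darker (0.484 and 0.895).

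Other genes of the chemokine system were taken from fixed lists. Of 8 atypical receptors and chemokines outside the naming rule, 7 were tested and 0 were called, where 0% of genes were called, with 3 above and 4 below 0 (median -0.04). In this list Ccrl2, an atypical receptor that presents ligands on the cell surface, had -0.36 (SE 0.16, unadjusted p = 0.0407), and Pf4, the platelet chemokine Cxcl4, had -0.57 (SE 0.26, unadjusted p = 0.0438). The scavenger Ackr3, which removes Cxcl12, had -0.15 (SE 0.11). Of 31 genes for G protein signalling, receptor desensitization and integrin adhesion, 0 were called, 8 lay above and 23 below 0 (median -0.08). Of all tested genes 46.1% lay below 0 and 0% were called, and genes of a list are not independent values. The leukocyte GTPase Rac2 had -0.31 (SE 0.16). Of 9 tested inducers of chemokines, set against the same shares, 0 were called, 2 lay above and 7 below 0 (median -0.20). These included the interferon Ifng at -0.50 (SE 0.42), Il1b at -0.36 (SE 0.32) and Tnf at -0.24 (SE 0.23), whose groups overlapped.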

How the data were processed

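Poly(A) RNA of 19 tumours was sequenced from both ends with a stranded kit, per the labels' protocols. The values are expected counts (estimated counts) per Ensembl gene, as the authors deposited them. Per the submitters' processing notes kallisto 0.44.0, edgeR, limma and GRCm38 were used, with no role given. How the authors summed transcripts to genes is not given in the sources used here. Columns were matched to samples by title, and 26357 of 26796 identifiers found a symbol in GENCODE M21 (GRCm38). Estimated counts share reads between near-identical genes by a model.

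Counts were rounded and tested with edgeR 4.0.16 (R 4.3.3, filterByExpr, TMM, quasi-likelihood test, Benjamini-Hochberg adjustment over 15629 genes, threshold 0.05). CPM use normalized library sizes, and log2 CPM for correlations were computed at prior count 2. DESeq2 1.42.0 and limma 3.58.1 (voom) were alternatives, as were other scaling, filters, covariates, title numbers and leaving out each tumour. On simulated counts for 27HC against DMSO with 200 changed genes of 15629, 53% of 2-fold and 92% of 4-fold changes were recovered, with 3 false calls. The changed genes were drawn at random from all tested genes. Noise was independent between genes, and the split into low-GC and other libraries was not simulated. Members had a wider spread between tumours than all genes, so these shares need not hold for them. No pair of tumours of one group agreed within sampling noise (lowest chi-square per degree of freedom 40.2). The members, lists and pairs were chosen with earlier results of these data known. Genes named with values were the 8 ligands and 8 receptors highest per length, the 4 members per direction with the smallest p, the Xcl1 and Cx3cl1 families, Ccl3 and Ccl4, and for correlations the highest and lowest values. One member that this rule names is not reported here. Other members named (Ccl2, Ccl7, Cxcl10, Cxcr6, Ccl24, Cxcl13, Ccr3 and those in correlations over 14 tumours) were chosen after their values were seen. Cxcl11 is not annotated as protein coding and is no member. Of 33 known pairs 30 could be tested.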

Additional observations from a re-analysis of the deposited data

Results flagged for a closer look

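Each of the 23 named members was checked in both groups for a single tumour far from the rest, 46 checks in all, of which chance alone sets off about 1 in 20. There were 2 such cases. Ccl6 was 95.9 CPM in 27HC replicate 1_3, the tumour in which 16 of 47 members peaked, and the next 27HC tumour had 57.4 CPM. Cxcl16 was 143.9 CPM in 27HC replicate 2_4, and the next had 109.8 CPM.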

How the results depend on the processing

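No member was called by edgeR under any setting, and the count over all genes was 0 by edgeR and limma-voom and 2 by DESeq2. Ligand and receptor pairs past the threshold numbered 16, 4 with title number 1 alone, 9 with title number 2 alone, 4 without the low-GC libraries and 13 to 17 when 1 tumour was left out. Marker relations numbered 172, 107 by Spearman, 17 and 23 with title numbers 1 and 2 alone, 7 without the low-GC libraries and 125 to 176 when 1 tumour was left out. The low-GC libraries were left out, or entered as a covariate, after seeing the data. Fewer tumours also lower what a test can call, and the cause of these changes was not tested.

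Of 23 named members, 9 changed the sign of their fold change in at least 1 setting, and none of these values passed the test. With title number 1 alone the values were 0.088 for Ccl8, 0.012 for Ccr1, 0.45 for Ccr2, -0.24 for Cx3cl1, -0.093 for Cxcl16 and 0.12 for Xcl1, and with title number 2 alone 0.050 for Cxcr2. Cxcl16 was -0.0068 with no filter, -0.023 with a filter at 1 log2 CPM and -0.018 with the skeletal muscle score as covariate. Cxcl9 was -0.063 by limma-voom, -0.24 with the muscle score, -0.32 without the low-GC libraries and -0.16 with them as a covariate. When 1 tumour was left out, Ccl8 ran from -0.18 to 0.10, Ccr2 from -0.65 to 0.31, Cx3cl1 from -0.034 to 0.17, Cxcl16 from -0.061 to 0.058, Cxcl9 from -0.19 to 0.46, Cxcr2 from -0.25 to 0.013, Xcl1 from -0.39 to 0.051 and Xcr1 from -0.49 to 0.32.

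With the title number as a replicate block, 0 genes were called, the member median was -0.13 with 34 of 47 below 0 (47.5% of all genes), and Ccl8 was 0.010. Of 9 shared numbers only 5 had a correlation above 0.1 between their tumours (range -0.43 to 0.78), and 1 of them matched its own number best, so the tumours were not taken as paired.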
